A study of Homo sapiens and synthetic construct with 129 samples.

Results

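The guides described here target 24 mitochondrial carrier genes of the SLC25 family in combinatorial KO screens in HCT116, a human colorectal carcinoma cell line. They were chosen by gene name: every gene called SLC25A with a number, except 16 carriers of the same family (SLC25A1, SLC25A3, SLC25A5, SLC25A6, SLC25A11, SLC25A13, SLC25A16, SLC25A24, SLC25A26, SLC25A28, SLC25A32, SLC25A33, SLC25A36, SLC25A37, SLC25A42 and SLC25A51), which appear below only as partners. This gave 24 of the 40 SLC25A genes and 240 of 4425 guides against non-control genes, a guide being counted once in each screen. Of these, 72 of 822 guides were in Cas12a-SLCxSLC (3 per gene), 144 of 1692 in Cas9-SLCxSLC (6 per gene), 12 of 846 in Cas12a-SLCxEnzyme and 12 of 948 in Cas9-SLCxEnzyme. The SLCxEnzyme libraries held SLC25A27 and SLC25A45 alone of the 24, and none of the 117 guides of Cas12a-Metal-SLCxSLC was against a member.

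The screens asked which pairs of transporter genes, or of a transporter and a metabolic enzyme, change proliferation when lost together. Each construct carried 2 sgRNAs, and a member was paired with olfactory receptor (OR) controls for the single KO, with other SLC25 genes, or with other genes. These classes held 6984, 20160 and 157572 of the members' 184716 sgRNA pairs, of 1116418 in all, and 149 of them had a mean input count under 10 and were left out. All cells came from HCT116 subclones, each grown from 1 cell, that carry lentiviral enCas12a (construct pRDA_174) or lentiviral Cas9 (lentiCas9-Blast), and the inputs were the plasmid libraries.

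Cas12a-SLCxSLC was run as separate sub-screens whose counts lie in 3 tables (sublibraries 1, 2 and 3_4), each with 3 replicates per harvest. The cells grew in high-glucose standard medium and were taken after 1, 2, 3 and 5 weeks, of which week 2 of sublibrary 3_4 was not used. Cas9-SLCxSLC had 2 replicates at weeks 1, 2 and 3, 1 sample at week 4 and 2 inputs in the same medium, and both SLCxSLC screens were grown with Nystatin against fungi. Cas12a-SLCxEnzyme had 3 replicates of the input, of week 1, and of weeks 3 and 5 in standard medium (glu), hypoxia at 1% oxygen (hyp), antimycin (ant) or medium with galactose in place of most glucose (gal). Cas9-SLCxEnzyme had 3 replicates of the input, of weeks 1 and 2, and of weeks 3, 4 and 6 in glu or hyp. Treatments began 1 week after transduction in the Cas12a pools and 2 weeks after it in the Cas9 pools, so that week 3 was not the same length of treatment in both. A sample's total count lay between 14491264 and 37459181 in Cas9-SLCxEnzyme, and between 19757899 and 33041652 in Cas12a-SLCxEnzyme. The SLCxSLC samples were deeper, with 266158636 to 367300698 counts under Cas9 and 150938181 to 925299279 under Cas12a. The labels do not say that replicates were separate cultures, so p-values measure the spread between these samples and between sgRNA pairs.

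SLC25 proteins are the main carrier family of the inner mitochondrial membrane. Each moves a nucleotide, a cofactor, an amino acid, a carboxylate or an ion between the cytosol and the matrix, mostly by exchange, and so links the respiratory chain, the citric acid cycle and amino acid and lipid metabolism to the rest of the cell. Some members have close relatives with the same substrate. A few lie elsewhere: SLC25A17 is in the peroxisome, and SLC25A46 is in the outer mitochondrial membrane, where it takes part in mitochondrial dynamics.

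Guides of SLC25A14, SLC25A17, SLC25A21, SLC25A25, SLC25A29 and SLC25A30, members in interactions scored in Cas12a-SLCxSLC, are shown first, since all results of that screen rest on 3 guides per gene. A Cas12a guide reads 5′ to 3′ from the end next to the PAM, and the capitals mark the first 6 bases, where the enzyme starts to pair with its target. Nothing in the files places the guides in the genome, so no coordinates are given.
SLC25A14_1: GCACCAgaaaagtaccactgtaa
SLC25A14_2: GATTCGaatgcaggctcaaggaa
SLC25A14_3: CAGATGcgaaacagcgcatggaa
SLC25A17_1: TACTTAccctgaagtcgaagtct
SLC25A17_2: ATAGCCtcaaagcactctgggtc
SLC25A17_3: ATCAGAtcattcgcgatgaagga
SLC25A21_1: ACCACAtctagggggtgcatcag
SLC25A21_2: AGAGATgtgcaaccgatccaaac
SLC25A21_3: ACTGCAactttgggacgacatgg
SLC25A25_1: AGACGCtcgacgtcaaccgggac
SLC25A25_2: GTCTGCctcatcgccggcgtccg
SLC25A25_3: CCTACAtacctgcatgagcacct
SLC25A29_1: CGTAGAtctgcgcgaggcagtcc
SLC25A29_2: GCGGTActgaggcttctccacgc
SLC25A29_3: TGACGTaccgcccgccaacagca
SLC25A30_1: ACAGGAttgcccccgcgatgtta
SLC25A30_2: AAGGCCagacgaatgatgcaaaa
SLC25A30_3: CAGATGaaactctaccgataaat

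For Cas9-SLCxSLC, the guides of the members with the highest and the lowest scored dLFC are shown (SLC25A25 and SLC25A39), dLFC being the departure of a double KO from what its single KOs predict. A Cas9 guide lies with its 3′ end next to the PAM, and the capitals mark the last 10 bases.
SLC25A25_1: gatgtggtggAGACACCTGG
SLC25A25_2: gagcagcatcTACCCAATGG
SLC25A25_3: gggatgtggTGGAGACACC
SLC25A25_4: ggaggggcCAGGTCACTC
SLC25A25_5: ggcagaaaaAATTCTCAAG
SLC25A25_6: gcaggacgcATTGACGCGC
SLC25A39_1: gagaagggcACATCTCGAA
SLC25A39_2: gacaccattGCAATACAGG
SLC25A39_3: ggtcagggcTCGACCACAC
SLC25A39_4: gtgcctcacgATCTTCACGA
SLC25A39_5: gacctctacGCACCCATGG
SLC25A39_6: gccttcgtGAAGATCGTG

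No member guide had the sequence of a guide against another gene. Cas12a guides were 23 bases long with 34.8 to 73.9% GC in Cas12a-SLCxSLC (median 56.5%), and Cas9 guides were 18 to 21 bases long with 25 to 73.7% GC in Cas9-SLCxSLC (median 55%). Guides of 1 gene were not always independent. In Cas9-SLCxSLC, 28 member guides of 12 genes shared at least 12 bases in a row, on either strand, with another guide of the same gene, in 16 combinations. SLC25A25_1 and SLC25A25_3 share 17 bases on 1 strand, and SLC25A39_4 and SLC25A39_6 share 14 on opposite strands. No such pair was found among the members' Cas12a guides.

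LFC is the log2 ratio of a pair's share of counts to its share in the input, relative to the median of pairs of 2 ORs. As single KOs, the 24 members stayed close to the OR controls in Cas12a-SLCxSLC. Their week 3 LFCs lay between −0.48 for SLC25A30 and 0.33 for SLC25A29, with a median of −0.02, against −0.05 over all 274 genes. By edgeR's quasi-likelihood test over all genes, at an adjusted p under 0.05 and an absolute log2 fold change over 0.3, 2 of 24 members changed, and 20.4% of all genes did. These 2 members split in direction: 14.2% of all genes were lower and 6.2% higher. With smaller changes allowed, 21 of 24 members had an adjusted p under 0.05. The share of all genes at that level is not given here, so this does not set the members apart.

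SLC25A30, an uncoupling protein-like carrier, had the lowest single KO LFC, at −0.52, −0.49 and −0.43 in the 3 replicates (mean −0.48 ± 0.04, SD, n = 3). It was 29th from the lowest of 274 genes, and its log2 fold change was −0.38 with a standard error of 0.04. Its guides differed: SLC25A30_1 gave −0.55, SLC25A30_2 gave −0.05 and SLC25A30_3 gave −0.84. The value was −0.35 at week 1 and −0.32 at week 5, so that it was lowest neither at the first nor at the last harvest.

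SLC25A29, a carrier of basic amino acids, had the highest, at 0.34, 0.34 and 0.33 (mean 0.33 ± 0.005, SD, n = 3). It was 266th of 274 genes from the lowest, with a log2 fold change of 0.38 and a standard error of 0.05. Its 3 guides gave 0.45, 0.34 and 0.21. The LFC was 0.27 at week 1 and 0.23 at week 5. DESeq2 called SLC25A29 too, together with SLC25A10, SLC25A20, SLC25A39 and SLC25A53, all higher, but not SLC25A30, which it put at −0.28. Of all 274 genes it called 70, with 44 higher and 26 lower.

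Sublibrary 1 gave wider single KO values than the others. It was amplified with another polymerase, was its own sub-screen, and its week 3 samples and their input were those labelled v0. These differ together and cannot be told apart. The mean LFC of SLC25A30 was −0.97 there, −0.31 in sublibrary 2 and −0.33 in sublibrary 3_4. SLC25A29 gave 0.68, 0.18 and 0.30 in the same order. SLC25A45 gave −0.89, −0.01 and −0.05, so that its mean of −0.24 rested on sublibrary 1. Fitted on sublibrary 1 alone, 6 members changed (SLC25A10, SLC25A20, SLC25A29, SLC25A30, SLC25A43 and SLC25A45), on sublibrary 2 only SLC25A30, and on sublibrary 3_4 SLC25A29 and SLC25A44. Of all 274 genes, 104, 47 and 56 were called in the same order, a larger share than among the 24 members each time. Both calls of the joint fit are therefore carried by some sublibraries and not by all.

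By role, the 3 uncoupling protein-like carriers (SLC25A14, SLC25A27 and SLC25A30) were all below 0, with a median LFC of −0.11, and SLC25A30 was the member called. Of 5 carriers of nucleotides and cofactors, 4 were below 0 (median −0.07, lowest SLC25A25 at −0.17) and none was called. Of 6 amino acid carriers, 2 were below 0 (median 0.03), with SLC25A44, a carrier of branched-chain amino acids, at −0.24 and SLC25A29 called as higher. The 3 dicarboxylate and carnitine carriers lay between 0.05 for SLC25A21 and 0.21 for SLC25A10, none called. SLC25A39, which carries glutathione into mitochondria, was at 0.21 and its relative SLC25A40 at −0.06. Of the 5 other or orphan carriers, the lowest was SLC25A45 at −0.24 and the highest SLC25A53 at 0.19. With SLC25A30 and SLC25A29 aside, every member was therefore within 0.3 of the OR controls at week 3.

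A few members moved with time, but the harvests were not alike. In sublibrary 1, weeks 1 and 3 were samples labelled v0 and weeks 2 and 5 were not. Week 2 also lacked sublibrary 3_4. Time and sample set therefore cannot be told apart in these joint values, those of SLC25A30 and SLC25A29 above included. SLC25A22, a glutamate carrier, went from 0.18 at week 1 through 0.12 and 0.01 to −0.26 at week 5. SLC25A44 went from −0.09 through −0.29 and −0.24 to −0.38, and was called at weeks 2 and 5. SLC25A39 went the other way, from 0.09 to 0.28.

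In Cas9-SLCxSLC, week 3 single KO LFCs of the members ran from −0.41 for SLC25A4 to 0.49 for SLC25A29, with a median of −0.03 against 0.06 over all 277 genes. SLC25A4, an isoform of the ADP/ATP carrier, gave −0.38 and −0.45 in the 2 replicates. SLC25A29 gave 0.53 and 0.45, and SLC25A48, a choline carrier, gave 0.47 and 0.43. SLC25A14, SLC25A38, SLC25A39 and SLC25A53 followed at 0.33, 0.32, 0.28 and 0.30. SLC25A38 is a glycine carrier and SLC25A53 an orphan.

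All 6 guides of SLC25A29 were above 0, from 0.23 to 0.72, and so were all 6 of SLC25A48, from 0.29 to 0.69. Other members had guides on both sides of 0. The guides of SLC25A25, a calcium-regulated carrier of ATP-Mg and phosphate, ran from −1.15 to 0.84, those of SLC25A30 from −1.09 to 0.45 and those of SLC25A4 from −1.23 to 0.38. The mean of a member in this screen can therefore hide guides that differ by more than its distance from 0.

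With OR-OR counts as library size, edgeR called 10 of 24 members, all higher (SLC25A14, SLC25A17, SLC25A21, SLC25A29, SLC25A38, SLC25A39, SLC25A44, SLC25A46, SLC25A48 and SLC25A53). This share is below that of all genes, of which 66.4% were called, 53.4% as higher and 13% as lower. The median log2 fold change of all genes was 0.32 in this fit, so values are given relative to it. Relative to the median, SLC25A29 was at 0.47, SLC25A48 at 0.41, SLC25A38 at 0.28 and SLC25A14 at 0.26, while SLC25A44 was at 0.01 and SLC25A4 at −0.38. Scaled with TMM in place of OR-OR counts, or with DESeq2, 4 members were called, among them SLC25A29 and SLC25A48 as higher and SLC25A4 as lower. Under TMM, 29.2% of all genes were called, 10.8% higher and 18.4% lower, and DESeq2 called 80 of 277. With OR-OR counts that leave out the added control library, 7 members were called, among them SLC25A14, SLC25A29, SLC25A38, SLC25A39, SLC25A48 and SLC25A53, against 36.5% of all genes (20.6% higher and 15.9% lower). SLC25A29 and SLC25A48 were thus called as higher under all these scalings, and the other 8 calls were not.

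SLC25A4 had its lowest LFC at the last harvest of Cas9-SLCxSLC, going from −0.01 at week 1 through −0.30 and −0.41 to −0.60 in the week 4 sample. SLC25A10, a dicarboxylate carrier, went from 0.30 to −0.38 and SLC25A22 from 0.19 to −0.47. SLC25A29 stayed above 0, at 0.59 at week 1 and 0.43 at week 4.

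Between the SLCxSLC screens, the single KO LFC of 7 of 24 members differed by more than 0.3 with limma's adjusted p below 0.05, and so did 36.9% of 268 shared genes. Cas12a was lower for SLC25A14 (difference −0.37 ± 0.03, SE), SLC25A48 (−0.35 ± 0.03), SLC25A44 (−0.31 ± 0.03) and SLC25A46 (−0.31 ± 0.04). Among those higher under Cas12a were SLC25A43, an orphan carrier (0.39 ± 0.03), and SLC25A4 (0.35 ± 0.04). Centring both screens on their median gene raised each difference by 0.115, and 6 members then differed, among them SLC25A4, SLC25A10, SLC25A20, SLC25A22 and SLC25A43, against 32.1% of genes; the 4 with lower values under Cas12a were no longer among them. Nuclease, subclone and library differ together between these screens and cannot be told apart.

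SLC25A27, an uncoupling protein-like carrier, and SLC25A45 were also in the SLCxEnzyme libraries. In Cas12a-SLCxEnzyme at week 3 in glu, SLC25A27 gave −0.20, −0.00 and −0.14, and SLC25A45 gave 0.08, 0.03 and 0.11. The median of all 150 genes was −0.12. Neither member changed against the input: the log2 fold changes were −0.11 ± 0.07 (SE, adjusted p = 0.148 by edgeR) and 0.06 ± 0.07 (adjusted p = 0.499), neither had an unadjusted p under 0.05, and TMM and DESeq2 called 0 as well, while 41.3% of all genes were called, 35.3% as lower and 6% as higher. At week 5 in glu SLC25A27 was at −0.27 and SLC25A45 at −0.12.

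Neither member's single KO moved with the medium at the size asked for, an absolute log2 fold change over 1. SLC25A27 was at −0.04 in hyp, −0.11 in ant and −0.06 in gal, all within 0.1 of its level in glu. SLC25A45 was at 0.13 in hyp, 0.29 in ant (0.23, 0.30 and 0.34) and 0.16 in gal. Its change in ant against glu was 0.22 ± 0.08 (SE, adjusted p = 0.013 by edgeR), but only 0.035 relative to the median gene. The share of all genes called was 0% in hyp, 12% in ant and 5.33% in gal.

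In Cas9-SLCxEnzyme, the single KO LFCs at week 3 in glu were 2.06 for SLC25A27 and 1.76 for SLC25A45, but the median of all 151 genes was 1.87. Both members were called as higher by edgeR with OR-OR library sizes (log2 fold changes 0.97 ± 0.04 and 0.67 ± 0.05, SE), as were 70.2% of all genes, with 91.4% called in all, 21.2% as lower, and a median of 0.88. With TMM, with DESeq2, or without the OR-OR pairs of the added control library, neither was called, and SLC25A45 turned to −0.15, −0.19 and −0.048. Under TMM 55% of all genes were called, 33.8% as lower. OR-OR pairs numbered 12 in this screen, 6 of them from the control library. The 2 members were therefore not apart from the other genes, and neither was called between hyp and glu, where 0.662% of genes were.

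For pairs of genes, dLFC is the observed LFC minus the LFC expected from both single KOs. A pair below the expectation is called synthetic lethal and a pair above it synthetic viable. In Cas12a-SLCxSLC a pair was scored when its dLFC at week 3 was beyond 0.3 and each of the 3 replicates passed the paired test over sgRNA pairs and weeks, at an adjusted p of 0.1. The adjusted p given for such a pair is the largest of the 3. Weeks of the same sgRNA pair counted as separate values although they are not independent, so these p-values can be too small. Each member was tested with all other SLCs of the library in 257 gene pairs, and 5892 gene pairs held at least 1 member.

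9 of these 5892 pairs were scored, all as synthetic lethal. This is 0.153% of the pairs with a member, against 0.465% of all 33153 pairs (0.401% synthetic lethal and 0.0633% synthetic viable). At an unadjusted p under 0.05 in all 3 replicates there were 147, and 1 more pair, SLC16A6-SLC25A20 (0.32 ± 0.03, SD, n = 3), passed the thresholds but had moved by less than 0.1 since week 1, when it was at 0.27. 4 of the 9 were with another SLC25 gene, of 384 such pairs, and 5 with other SLCs, of 5232. Of the 276 pairs of 2 members, whose dLFC ran from −0.18 to 0.16, 0 were scored and 0 were called by limma. 5 of them had an unadjusted p under 0.05, of which SLC25A14-SLC25A43, an uncoupling protein-like carrier with an orphan, was the lowest in dLFC (−0.21, −0.14 and −0.19; adjusted p = 0.0087). The others included SLC25A14-SLC25A22, SLC25A21-SLC25A38 and SLC25A27-SLC25A39, with adjusted p from 0.160 to 0.178.

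The pair of SLC25A25 with SLC25A33, a carrier of pyrimidine nucleotides, was below the expectation although neither single KO was far from 0. The single KO LFCs were −0.17 for SLC25A25 and −0.15 for SLC25A33, and the expected LFC was −0.45. The replicates gave dLFCs of −0.25, −0.40 and −0.52 (mean −0.39 ± 0.14, SD, n = 3), and the observed LFC was −0.83. The adjusted p was 0.0013. All 18 sgRNA pairs were below 0, from −0.79 to −0.03, and the 3 guides SLC25A25_1, SLC25A25_2 and SLC25A25_3 averaged −0.37, −0.44 and −0.35. It deepened from −0.09 in the first week and −0.22 in the second to −0.63 at week 5. Over the 257 pairs of SLC25A33 the median was −0.03, 2 were scored, and this pair was the second lowest. In Cas9-SLCxSLC it was at −0.00, with replicates of 0.05 and −0.06. The difference between the screens was −0.38 ± 0.10 (SE, adjusted p = 0.061 by limma). Such differences are given for each pair, but leaving out any 1 Cas12a replicate left 1 pair with a member that differed.

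SLC25A30 and SLC25A51, which carries NAD, gave −0.33, −0.34 and −0.30 (mean −0.33 ± 0.02, SD, n = 3). The single KO LFCs were −0.48 and −0.82, and the observed LFC was −1.37 against −1.05 expected. The adjusted p was 0.052, and 16 of 18 sgRNA pairs were below 0. SLC25A30_2 had the lowest mean dLFC, at −0.49, although its single KO was near 0. This pair lay below the expectation in Cas9-SLCxSLC too, at −0.59 and −0.27, with 7 of 12 sgRNA pairs below 0 and an adjusted p of 0.048, which did not reach the 0.005 asked for there. Over all pairs of SLC25A51 the median dLFC was −0.11 and 5 were scored as lethal.

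SLC25A15, the ornithine carrier, was below the expectation with SLC25A26, which carries S-adenosylmethionine. The replicates gave −0.61, −0.54 and −0.58 (mean −0.58 ± 0.04, SD, n = 3), with 16 of 18 sgRNA pairs below 0 and an adjusted p of 0.039. The observed LFC was −2.67 and the expected −2.09. SLC25A26 was depleted on its own (LFC −2.42), and 37 of its 257 pairs were scored as lethal, with a median dLFC of −0.24; the SLC25A15 pair was 15th from the lowest. In Cas9-SLCxSLC the pair was at −0.16, with a difference of −0.42 ± 0.09 (SE, adjusted p = 0.040 by limma).

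SLC25A14, an uncoupling protein-like carrier, gave −0.65, −0.45 and −0.40 with the phosphate carrier SLC25A3 (mean −0.50 ± 0.13, SD, n = 3). The single KO of SLC25A14 was at −0.04 and that of SLC25A3 at −3.53. Over the 257 pairs of SLC25A3 the median dLFC was −0.13, 7 were scored as lethal, and this pair was 10th from the lowest. Its adjusted p was 0.042, and 15 of 18 sgRNA pairs were below 0. The 3 guides SLC25A14_1, SLC25A14_2 and SLC25A14_3 averaged −0.56, −0.30 and −0.64. In Cas9-SLCxSLC the replicates were on both sides of 0, at −0.34 and 0.18.

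The 5 other scored pairs were with 2 transporters that were depleted on their own and had low dLFCs with many genes. SLC30A9, the mitochondrial zinc transporter, had a single KO LFC of −2.36, and 25 of its 257 pairs were scored as lethal. Its dLFC was below 0 with 19 of 24 members, with a median of −0.26 over the members and −0.27 over its 233 other partners. SLC35B1, which exchanges ATP and ADP across the endoplasmic reticulum membrane, had −4.51 and 17 lethal pairs, with medians of −0.21 over the members and −0.24 over the others. A low dLFC with either was thus common among all SLCs, and the scored members are those that went beyond it.

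With SLC30A9, SLC25A15 gave −0.76, −0.69 and −0.74 (mean −0.73 ± 0.04, SD, n = 3), and 17 of 18 sgRNA pairs were below 0 (adjusted p = 0.0066). The guides were unequal: SLC25A15_1 averaged −0.91, SLC25A15_3 −1.30 and SLC25A15_2 0.03. It went from −0.08 at week 1 to −1.14 at week 5. In Cas9-SLCxSLC the pair was at −0.43 and −0.49, with an adjusted p of 0.017 that missed the threshold.

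SLC25A17, the peroxisomal carrier of CoA, FAD and NAD, gave −0.70, −0.45 and −0.75 with SLC30A9, and 13 of 18 sgRNA pairs were below 0 (adjusted p = 0.069). In Cas9-SLCxSLC it was at −0.31 and −0.70, with an adjusted p of 0.062. SLC25A29 gave −0.46, −0.56 and −0.68 with SLC30A9, with 17 of 18 sgRNA pairs below 0 and an adjusted p of 0.0085. Here Cas9-SLCxSLC went the other way on average, with −0.06 and 0.40, and the difference was −0.73 ± 0.14 (SE, adjusted p = 0.027 by limma).

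With SLC35B1, SLC25A21, a carrier of oxodicarboxylates, gave −0.56, −0.69 and −0.96, which is the lowest mean dLFC of a member in this screen (−0.74 ± 0.20, SD, n = 3). It had an adjusted p of 0.031, and 16 of 18 sgRNA pairs were below 0. SLC25A25 gave −0.60, −0.78 and −0.75 with SLC35B1, with SLC25A25_1 and SLC25A25_2 at −0.94 each and SLC25A25_3 at −0.25 (adjusted p = 0.027). Observed LFCs were −5.04 and −5.28. In Cas9-SLCxSLC the SLC25A21 pair was at −0.07 and the SLC25A25 pair at 0.46, and both differed from Cas12a by limma (−0.66 ± 0.15, adjusted p = 0.042, and −1.18 ± 0.15, adjusted p = 0.012).

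All 9 pairs kept their call when any 1 replicate was left out. Each replicate was tested on its own and fewer then have to pass, so this says little about how firm the calls are. None was scored on week 3 alone. 7 of the 9 were below 0 in Cas9-SLCxSLC as well, SLC25A29-SLC30A9 and SLC25A25-SLC35B1 being above. Over all genes, 99 of 154 pairs scored under Cas12a had the same sign under Cas9. None of the 9 was scored in Cas9-SLCxSLC, where 20 of the 154 were.

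Some members have relatives in the family that carry the same or a like substrate. Of 17 pairs of related carriers, 0 were scored in either screen, and limma called 0 in either. In Cas12a-SLCxSLC their dLFC ran from −0.09 for SLC25A13-SLC25A22, an aspartate/glutamate carrier with a glutamate carrier, to 0.11 for SLC25A14-SLC25A27, both uncoupling protein-like. 14 of 17 were below 0, 0 had an unadjusted p under 0.05, and the smallest adjusted p was 0.443. SLC25A39-SLC25A40 was at −0.09 (−0.11, −0.02 and −0.13) and SLC25A4-SLC25A5, a pair of ADP/ATP carriers, at −0.02.

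In Cas9-SLCxSLC the 17 pairs ran from −0.31 to 0.08, with 10 below 0. Of the 17, 5 had an unadjusted p under 0.05, as did 1629 of the 5892 pairs with a member. The aspartate/glutamate carriers SLC25A12-SLC25A13 gave −0.30 and −0.32 (adjusted p = 0.017). The uncoupling protein-like carriers SLC25A14-SLC25A30 gave −0.34 and −0.26, with 11 of 12 sgRNA pairs below 0 (adjusted p = 0.026). The ATP-Mg/phosphate carriers SLC25A23-SLC25A24 gave −0.29 and −0.26 (adjusted p = 0.041). These 3 missed the adjusted p of 0.005, and in Cas12a-SLCxSLC they were at −0.06, −0.07 and 0.04. SLC25A4-SLC25A5 gave −0.07 and −0.52, and SLC25A39-SLC25A40 −0.16 and −0.28.

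The other related pairs stayed within 0.2 of the expectation in both screens. With aspartate/glutamate or glutamate carriers, SLC25A12-SLC25A22 was at −0.03 under Cas12a and −0.02 under Cas9, and SLC25A13-SLC25A22 was at −0.03 under Cas9. Among uncoupling protein-like carriers, SLC25A27-SLC25A30 was at −0.04 and −0.06, and SLC25A14-SLC25A27 was at 0.04 under Cas9. Among carriers of adenine nucleotides, SLC25A4-SLC25A6 was at −0.01 and 0.08, SLC25A23-SLC25A25 at −0.01 and 0.04, and SLC25A24-SLC25A25 at −0.01 and 0.03. SLC25A10-SLC25A11, a dicarboxylate with an oxoglutarate carrier, was at −0.00 and 0.01. The amino acid carriers SLC25A15-SLC25A29 were at −0.09 and −0.16. SLC25A29-SLC25A45 was at 0.03 and −0.18, SLC25A29-SLC25A48 at −0.01 and 0.04, and SLC25A45-SLC25A48 at −0.05 and 0.07. A pair that missed the thresholds is not thereby shown to be without an interaction.

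In Cas9-SLCxSLC all harvests from week 2 on, both replicates included, entered 1 paired test, and pairs with an adjusted p below 0.005 were scored. Repeated values of the same sgRNA pair are not independent, so the p-values of this test can be too small. 115 of the 5892 pairs with a member were scored, 71 as synthetic lethal and 44 as synthetic viable. This is 1.95%, against 2.13% of all pairs (1.32% synthetic lethal and 0.808% synthetic viable). 1629 pairs had an unadjusted p under 0.05, and 64 more passed the thresholds but had moved by less than 0.1 since week 1. The calls depended on the replicates and weeks: 0 were scored without replicate 1 and 68 without replicate 2, and 1 on week 3 alone.

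The scored pairs were spread unevenly over the members. SLC25A27 and SLC25A48 had 11 each, all lethal, and SLC25A39 had 7 lethal and 2 viable. By contrast, SLC25A25 had 1 lethal and 8 viable. Over all 257 pairs the median dLFC was −0.10 for SLC25A27, −0.07 for SLC25A48 and 0.04 for SLC25A25. Such a lean was not particular to these members. The median was −0.09 for each of SLC25A17, SLC25A21 and SLC25A44, and 0.06 for SLC25A46. SLC25A21 had 3 lethal and 3 viable pairs all the same.

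10 of the 115 were within SLC25, of 660 such pairs. This is 1.52%, against 1.95% of the pairs with a member and 2.13% of all pairs. The lethal ones included SLC25A13-SLC25A21 (−0.49), SLC25A39-SLC25A48 (−0.47), SLC25A32-SLC25A48 (−0.44), SLC25A24-SLC25A30 (−0.39), SLC25A15-SLC25A30 (−0.39) and SLC25A13-SLC25A39 (−0.38). The viable ones were SLC25A10-SLC25A3 (0.88), SLC25A28-SLC25A46 (0.54) and SLC25A11-SLC25A12 (0.36). SLC25A39-SLC25A48 and SLC25A15-SLC25A30 were the pairs of 2 members, of 276. By limma 2 of the 276 were called as well. An unadjusted p under 0.05 was found for 78 of the 276, against 1629 of the 5892 pairs with a member.

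The lowest dLFC of a member was that of SLC25A39 with LETM1, a cation/proton exchanger of the inner mitochondrial membrane. The replicates gave −1.16 and −2.31, and the observed LFC was −5.18 against −3.44 expected (adjusted p = 0.000465). 11 of 12 sgRNA pairs were below 0. The 6 SLC25A39 guides, listed above, averaged −1.32, −2.01, −1.10, −1.04, −2.39 and −2.56 in order. From −0.23 in the first week it went to −0.61 in the second, and it was −1.50 in the week 4 sample. LETM1 was depleted on its own (LFC −3.78), and its dLFC was below 0 with 22 of 24 members, with a median of −0.39 over the members and −0.40 over other SLCs. Of its 257 pairs, 25 were scored as lethal, and that with SLC25A39 was the lowest. In Cas12a-SLCxSLC, where the LETM1 single KO was at −0.78, the pair was at −0.14, 0.16 and 0.05.

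SLC25A29 with LETM1 gave −1.12 and −0.52, and −2.34 in the week 4 sample (adjusted p = 0.0018). It was 33rd from the lowest of the LETM1 pairs, so that it did not stand apart from them. In Cas12a-SLCxSLC it was at −0.01, 0.29 and 0.31.

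SLC25A39 gave −0.96 and −0.72 with SLC7A1, a transporter of cationic amino acids, and −1.45 in the week 4 sample (adjusted p = 0.000118). 10 of 12 sgRNA pairs were below 0. SLC7A1 was depleted on its own (−3.66) and had 10 lethal pairs, and by dLFC this pair was the sixth lowest of all its pairs. SLC25A17 gave −1.03 and −0.77 with SLC45A4 (adjusted p = 1.43e-05), of which −0.60 was there at week 1. SLC45A4 had 13 lethal pairs of 257.

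The other named lethal pairs lay between −0.67 and −0.53. They were SLC25A14-SLC49A3 (−0.97 and −0.36), SLC12A8-SLC25A20 (−0.44 and −0.70), SLC16A5-SLC25A30 (−0.74 and −0.37), SLC25A27-SLC27A1, the latter a fatty acid transporter (−0.57 and −0.50), SLC25A44-SLCO4A1, the latter an organic anion transporter (−0.41 and −0.66), and MAGT1-SLC25A38 (−0.65 and −0.41). MAGT1 has been described as a magnesium transporter and a subunit of an oligosaccharyltransferase. For SLC25A14-SLC49A3, 1 sgRNA pair reached −4.64 while the median of its 12 sgRNA pairs was −0.21. At week 1, SLC25A44-SLCO4A1, MAGT1-SLC25A38 and SLC25A27-SLC27A1 were at −0.40, −0.38 and −0.32. Most of their size was thus there from the start. SLC25A14-SLC49A3, SLC16A5-SLC25A30 and SLC12A8-SLC25A20 were at −0.32, −0.22 and −0.11 at week 1. Of the partners, SLC16A5 had 10 lethal pairs of 257, SLC27A1 8, SLCO4A1 7, SLC49A3 5, SLC12A8 4 and MAGT1 4.

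The highest dLFC of a member was that of SLC25A25 with SLC30A9. Loss of SLC30A9 alone gave an LFC of −2.97 and loss of both genes −1.11, where −3.05 was expected. The replicates gave 1.41 and 2.48 (adjusted p = 9.54e-08), and all 12 sgRNA pairs were above 0, from 0.08 to 3.42. The 6 SLC25A25 guides, listed above, averaged 2.82, 2.05, 1.68, 3.09, 1.19 and 0.84 in order. Their single KO LFCs ran from −1.15 to 0.84, so the dLFC had 1 sign where the single KOs did not. The value went from 0.08 at week 1 through 0.39 to 1.94, and was 1.98 in the week 4 sample. It was the pair scored on week 3 alone, but it was not scored without replicate 1.

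Over all 257 pairs of SLC30A9 the median was −0.02, 4 were scored as viable, and SLC25A25 was the third highest. In Cas12a-SLCxSLC the SLC25A25-SLC30A9 pair had the highest dLFC of all pairs with a member, at 0.46, 0.36 and 0.71 (mean 0.51 ± 0.18, SD, n = 3), with 14 of 18 sgRNA pairs above 0. It was not scored there, limma gave an adjusted p of 0.0030, and it was at 0.12 at week 5. Its guides SLC25A25_1 and SLC25A25_3 averaged 0.63 and 0.88 and SLC25A25_2 0.02. The pair was thus above the expectation in both screens, with a larger value under Cas9 (difference −1.43 ± 0.26, SE, adjusted p = 0.024 by limma).

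SLC25A46 was above the expectation with MTCH2, an insertase of the outer mitochondrial membrane. The replicates gave 0.71 and 0.50 (adjusted p = 7.78e-05), with 11 of 12 sgRNA pairs above 0, and the dLFC went from 0.06 at week 1 to 0.97 in the week 4 sample. MTCH2 was depleted on its own (−3.25). In Cas12a-SLCxSLC the pair gave 0.43, 0.21 and 0.30, which limma called (adjusted p = 0.011) and the paired test did not. It was 12th from the highest of the MTCH2 pairs under Cas9.

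SLC25A10 gave 1.42 and 0.35 with SLC25A3 (mean 0.88 ± 0.75, SD, n = 2), replicates that lie far apart. SLC25A10_1 averaged 2.57, and the other 5 guides 0.03 to 1.17. In Cas12a-SLCxSLC the pair was at −0.30, so that the direction was not shared.

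The other named viable pairs lay between 0.54 and 0.60. SLC25A45-SLC35E1 gave 0.45 and 0.74, and SLC35E1 had 13 viable pairs. SLC25A25 gave 0.58 and 0.57 with SLC10A3 and 0.51 and 0.59 with SLC29A4, a monoamine transporter. SLC25A28-SLC25A46, the former an iron carrier, gave 0.55 and 0.52. Their week 1 values were 0.43, 0.30, 0.27 and 0.42, so a large part was there at week 1.

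No pair with a member was scored in both screens, while over all pairs 20 were, of 154 scored under Cas12a and 705 under Cas9. Across the 5892 pairs with a member, dLFC in Cas12a-SLCxSLC and Cas9-SLCxSLC had a Pearson r of 0.04, against 0.11 over all 33153 pairs (pairs with a gene in common are not independent of each other). Of the 115 pairs scored under Cas9, 63 had the same sign under Cas12a, and of all 705 scored pairs 404 did. By limma, 276 of the 5892 pairs differed between the screens (4.68%, against 5.69% of all pairs), 143 with Cas12a lower and 133 with Cas12a higher. This count fell to 1 when any Cas12a replicate was left out, and was 926 and 870 without Cas9 replicate 1 and 2. The named pairs were chosen because 1 screen scored them, so their differences between screens are not independent of that choice.

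In the SLCxEnzyme screens SLC25A27 was paired with 41 genes and SLC25A45 with 10, in each medium. The 6 guides of SLC25A45 in Cas12a-SLCxEnzyme are shown because they carry the interaction scored there. SLC25A45_1 of this library is SLC25A45_3 of Cas12a-SLCxSLC, and the other 5 were not in that library.
SLC25A45_1: TAGCGGgctgcaccggggggttc
SLC25A45_2: GTAGCCggactttgatgaggtca
SLC25A45_3: TCGGAAcagcccccggggcccct
SLC25A45_4: AGGGGCccgtgcactgtgcagcc
SLC25A45_5: TAGGTGatgaagtagatccccac
SLC25A45_6: CTATAGaccccaaacaggacaga

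Of 51 pairs in 4 media of Cas12a-SLCxEnzyme, 1 was scored at an adjusted p under 0.05 over 3 replicates. It was SLC25A45 with TYMS, thymidylate synthase, as synthetic viable in hyp, at 0.49, 0.44 and 0.51 (mean 0.48 ± 0.03, SD, n = 3). Its adjusted p was 0.036, and 0.020 by limma. TYMS alone was at −1.46 there, and the observed LFC was −0.75 against −1.23 expected. It was at −0.09 at week 1 and 0.76 at week 5. In glu it was at 0.14, 0.15 and 0.43, in ant at 0.25 and in gal at 0.17, and its difference between hyp and glu was 0.24 with an adjusted p of 0.999 by limma, so no change with the medium was shown. Without any 1 replicate it was not scored. Under Cas9 it was at 0.05 in glu and 0.11 in hyp. Of all pairs, 1.95% were scored in glu (0.722% lethal, 1.23% viable), 2.33% in hyp (0.722% lethal, 1.61% viable), 2.25% in ant (1.4% lethal, 0.849% viable) and 0.467% in gal (0.0849% lethal, 0.382% viable).

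Over its 10 pairs SLC25A45 had a median dLFC of 0.14 in glu, 0.14 in hyp and 0.09 in gal, and of −0.05 in ant.

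SLC25A27 had its lowest dLFC with RRM1, the large subunit of ribonucleotide reductase, in all 4 media, but with replicates on both sides of 0. In glu they were −1.79, −0.70 and 1.15 and in gal −2.40, −2.50 and 0.84. RRM1 alone was at −6.38 in glu, and no pair of SLC25A27 was scored.

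In Cas9-SLCxEnzyme 0 of 51 pairs were scored in either medium, and limma called 0 as well. An unadjusted p under 0.05 in the paired test was found for 7 and 8 of them in glu and hyp. The share of all pairs at that level is not given here, so this does not set the members apart. Of all pairs 2.8% were scored in glu (1.19% lethal, 1.61% viable) and 1.95% in hyp (0.806% lethal, 1.15% viable). The lowest dLFC in glu was that of SLC25A27 with OGDH, a subunit of the oxoglutarate dehydrogenase complex (−0.35, −0.71 and −0.16; adjusted p = 0.196).

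No dLFC of a pair with SLC25A27 or SLC25A45 differed between media by limma. In Cas12a-SLCxEnzyme 1, 4 and 3 of 51 pairs had an unadjusted p under 0.05 for hyp, ant and gal against glu, the smallest adjusted p values were 0.999, 0.140 and 0.293, and 0%, 1.4% and 2.46% of all pairs were called. The largest difference was RRM1-SLC25A27 in gal, at −0.91 with an adjusted p of 0.889. In Cas9-SLCxEnzyme 0 of 51 had an unadjusted p under 0.05 for hyp against glu, and 0% of all pairs were called.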

How the data were processed

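The deposited tables hold raw counts, not normalized, of reads that the authors trimmed (cutadapt 4.8) and matched exactly to the library's sgRNA combinations (MAGeCK 0.5.9.2.4). Samples were grouped by their labels. 3 columns that pool week 2 samples of sublibraries 3 and 4 were not used. Members, role groups, related carriers and tests were chosen with earlier results of these data known.

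To each count 1 was added before division by the sample total. For LFC, log2 shares were set against those of the averaged input (in sublibrary 1, samples marked v0 against the input so marked), and the OR-OR median was subtracted. An input mean of at least 10 was required of an sgRNA pair. The expected LFC was the sum of both sgRNAs' mean LFCs with ORs plus 1 constant in each sample, chosen so that dLFC had a median of 0 over all pairs. Pairs were scored with a two-sided paired test over sgRNA pairs, as in the methods of the study. Adjustment was after Benjamini, Krieger and Yekutieli over all pairs. Weeks and merged replicates of an sgRNA pair entered as separate values. These are not independent, so the p-values of the paired test can be too small. Viable calls with an expected LFC under −0.3 and an observed LFC below both single KOs were dropped, as were calls whose dLFC had moved by less than 0.1 since week 1. Single KOs were tested with edgeR 4.0.16 (quasi-likelihood) on counts summed per gene over OR pairs, dLFC and differences between screens with limma 3.58.1, both with Benjamini-Hochberg adjustment over all genes or pairs, in R 4.3.3 with DESeq2 1.42.0 as an alternative. Other steps used numpy 2.4.6, scipy 1.17.1, pandas 2.3.3 and statsmodels 0.14.6 under Python 3.11.15. The scripts were tested on simulated data. Pearson r over pairs is given without a p.

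Named in the text are the members called as single KOs, every scored Cas12a pair, the 12 lowest and 8 highest scored Cas9 pairs, all related carriers and every scored enzyme pair; other genes and pairs were named after their values were seen. Results of a few genes, and some guide sequences, are not reported here. Replicate numbers are shared between groups. Deviations from the group mean of samples with the same number had r of −0.03 to 0.08 between input and week 3 (10 pairs of groups), so these were not treated as paired. Between media at week 3 they had r of 0.08 to 0.50, over 0.1 throughout in 6 of 7 pairs of groups. Alternatives were other scalings, pseudocounts, input minima, filters, weeks, sublibraries, tests, a replicate block and leaving out each replicate. OR-OR centring without the added control library was chosen after seeing the data. Precision is set by the spread of replicates and sgRNA pairs, since a sample's median sgRNA pair had 574 to 2391 counts in these 4 screens.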

Additional observations from a re-analysis of the deposited data

Results flagged for a closer look

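Differences between Cas12a-SLCxSLC and Cas9-SLCxSLC (Cas12a minus Cas9, week 3) passed limma's test for the members and named pairs below. Nuclease, subclone and library differ together and cannot be told apart, and the pairs were named because 1 screen scored them. Of all pairs with a member 276 differed, and 1 did when any 1 Cas12a replicate was left out.

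The single KO LFC differed for SLC25A14 (−0.37), SLC25A48 (−0.35), SLC25A44 (−0.31), SLC25A46 (−0.31), SLC25A4 (0.35) and SLC25A43 (0.39). Such a difference was common among all shared genes, as given above. With both screens centred on their median gene, SLC25A14, SLC25A48, SLC25A44 and SLC25A46 fell below 0.3 in size (−0.25, −0.24, −0.19 and −0.19). SLC25A4 and SLC25A43 kept their call (0.46 and 0.50).

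The dLFC was higher under Cas12a, mostly near 0 against a lethal call under Cas9, for LETM1-SLC25A39 (1.76), LETM1-SLC25A29 (1.01), SLC25A17-SLC45A4 (0.99), SLC25A39-SLC7A1 (0.73), SLC25A14-SLC49A3 (0.69), SLC25A44-SLCO4A1 (0.66), SLC12A8-SLC25A20 (0.60), MAGT1-SLC25A38 (0.59), SLC16A5-SLC25A30 (0.54) and SLC25A27-SLC27A1 (0.52).

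The dLFC was lower under Cas12a, against a viable call under Cas9, for SLC25A25-SLC30A9 (−1.43), SLC25A10-SLC25A3 (−1.19), SLC25A45-SLC35E1 (−0.59), SLC10A3-SLC25A25 (−0.55) and SLC25A28-SLC25A46 (−0.55).

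Lethal calls under Cas12a went with a higher dLFC under Cas9 for SLC25A25-SLC35B1 (−1.18), SLC25A29-SLC30A9 (−0.73), SLC25A21-SLC35B1 (−0.66) and SLC25A15-SLC25A26 (−0.42). For SLC25A25, the Cas9 value was thus above the Cas12a value with SLC30A9, SLC35B1 and SLC10A3.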

How the results depend on the processing

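The 2 members called as single KOs in Cas12a-SLCxSLC became 5 with DESeq2, 1 at week 1, 1 at week 5, 6 on sublibrary 1 alone and 1 on sublibrary 2 alone. Of all 274 genes, 70, 29, 59, 104 and 47 were called in the same order. The 10 called in Cas9-SLCxSLC became 4 with TMM, 4 with DESeq2 and 17 at week 1. Of all 277 genes, 81, 80 and 195 were called in the same order. The 2 called in Cas9-SLCxEnzyme became 0 with TMM, 0 with DESeq2 and 0 without the control library, with SLC25A45 reversed to −0.15, −0.19 and −0.048. Of all 151 genes, 83, 76 and 104 were called there. The scaling decides the counts at week 3 in these Cas9 screens. The 9 scored pairs of Cas12a-SLCxSLC became 38 with limma, 44 with replicates merged, 0 on week 3 alone and 14 to 20 without 1 replicate, where fewer replicates have to pass; all alternatives but week 3 alone kept the same 9. The 115 of Cas9-SLCxSLC became 179 without the week 1 filter, 221 without the constant in the expected LFC (52 of them among the 115), 88 with limma (43 among the 115), 1 on week 3 alone and 0 to 68 without 1 replicate; of the 20 with the lowest or highest dLFC, 0 stayed scored without replicate 1 and 10 without replicate 2. The single scored pair of Cas12a-SLCxEnzyme became 3 with limma, 0 with 1 value per sgRNA pair and 2 at week 5. It became 10 without the constant and 0 to 0 without 1 replicate. The 0 of Cas9-SLCxEnzyme became 0 to 1 without 1 replicate, and 102 without the constant. These 102 are all 51 pairs in both glu and hyp, in a screen whose median single KO LFC over all genes was 1.87 in glu. Shares of all pairs under these alternatives are not given here, so the counts do not set the members apart. Pairs that differed between screens numbered 1 to 926 without 1 replicate, against 276. The cause was not tested where the alternative does not itself give it.

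With each replicate set against the input of its own number (the replicate block), 27 pairs were scored in Cas9-SLCxSLC, all among the 115, with 11 of those 20, and 2 in Cas12a-SLCxEnzyme. Between media, where numbers went together, the block changed no call. It changed no other call.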
